A study of Mus musculus with 6 samples.

Results

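The microRNAs of the imprinted Dlk1-Dio3 locus were examined in the livers of soy-fed and control mice. The members were the 47 mature microRNAs of a list of names from this locus, out of 1907 mature microRNAs in the read count table, and members without reads were kept. Small RNA from liver was sequenced in 6 libraries, each from a different male mouse of mixed strain background, given an age of 12 weeks in the labels. The soy group of 3 mice was fed for 4 weeks a granulated chow of 75% regular food and 25% soy bean powder, and the regular group of 3 mice was fed regular granulated chow alone. The comparison of the groups addressed whether the soy-enriched diet changes liver microRNAs. The soy libraries held 10032094 to 12762916 microRNA reads and the regular libraries 5727546 to 10325712, with regular replicate 3 the shallowest.

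MicroRNAs are short RNAs that guide silencing complexes to messenger RNAs, mainly through the seed near their 5′ end. The Dlk1-Dio3 locus is imprinted: the protein-coding genes Dlk1, Rtl1 and Dio3 are expressed from the paternal chromosome, and the non-coding RNAs Meg3, Rian and Mirg together with the microRNAs from the maternal chromosome. These microRNAs are abundant in embryo, placenta and brain and are low in most adult tissues. In the liver, mice that lack the miR-379 to miR-410 group have a disturbed switch of energy metabolism after birth.

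The 36 hairpins that give rise to the members lie on the plus strand of chromosome 12 between 109563692 and 109743795 (GRCm38), a stretch of 180.1 kb. The hairpin of miR-770 lies in an exon of Meg3. Those of miR-431, miR-433, miR-127, miR-434 and miR-136 lie opposite the retrotransposon-derived gene Rtl1, within its exon on the other strand, and those of miR-337, miR-540 and miR-665 lie beside it. miR-341 and miR-370 lie in introns of Rian. The remaining 25 hairpins form the miR-379 to miR-410 group, of which 11 fall inside the gene Mirg as GENCODE M21 draws it and 14 lie upstream of it, outside any host gene of that annotation.

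Mature sequences were taken from RefSeq (GRCm38.p6), where 44 of the 47 members had an entry; miR-376c-3p, miR-485-5p and miR-487b-3p did not. The sequences below are those of the members with most reads, of both arms of the 3 hairpins compared by arm below, and of a near-identical pair. Bases are written 5′ to 3′, and the capitals mark the seed at positions 2 to 8; mmu stands for mouse and is left out below.
mmu-miR-541-5p: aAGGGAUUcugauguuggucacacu
mmu-miR-411-5p: uAGUAGACcguauagcguacg
mmu-miR-411-3p: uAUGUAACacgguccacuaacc
mmu-miR-434-3p: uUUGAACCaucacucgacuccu
mmu-miR-434-5p: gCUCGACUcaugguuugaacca
mmu-miR-136-3p: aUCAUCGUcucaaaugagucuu
mmu-miR-136-5p: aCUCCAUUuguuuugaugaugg
mmu-miR-409-3p: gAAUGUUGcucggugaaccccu
mmu-miR-381-3p: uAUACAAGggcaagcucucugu
mmu-miR-300-3p: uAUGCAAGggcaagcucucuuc

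The 44 sequences carried 44 different seeds, so none of the 44 members with an entry shared a seed in full. The closest were miR-300-3p and miR-381-3p, which differ at 3 of 22 positions counted from the 5′ end, G4A, U21G and C22U with the miR-300-3p base first. miR-376b-3p and miR-376a-3p differ at 3 of 21 positions (A4G, C13A and U20G) and miR-543-3p and miR-495-3p at 4 of 22. How reads were divided between such pairs is not given in the sources used here, so the levels of these members are less certain than those of the others.

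The cluster took a small part of the liver microRNA reads, and most of it came from a few members. The 47 members summed to 1888, 1620 and 2419 reads in the soy libraries, against 2290, 2365 and 2247 in the regular libraries. As CPM, the usual scaling of reads to the library total, this was 147.9, 161.5 and 237.7 in soy and 223.6, 229.0 and 392.3 in regular livers. The groups overlapped, since soy replicate 3 stood above regular replicates 1 and 2. The exact binomial 95% interval was 228.3 to 247.4 CPM in soy replicate 3 and 376.3 to 408.9 in regular replicate 3, which covers counting error only because reads are not independent molecules. The mean share was 182.4 ± 48.4 CPM with soy and 281.6 ± 95.9 CPM with regular chow (SD, n = 3 each), a log2 ratio of -0.63 given without a test. The log2 ratio was -0.86 without soy replicate 3 and -0.31 without regular replicate 3. That library held the highest share and also the fewest reads in total, and the part of depth in this value was not tested.

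**Figure D1:**
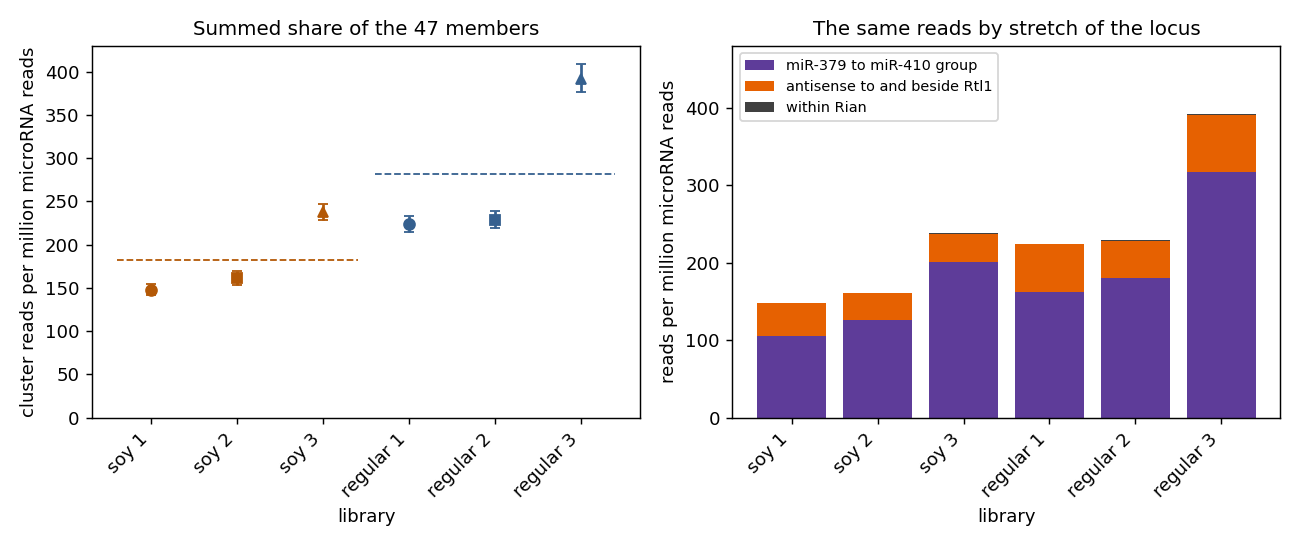
Reads of the 47 members as CPM of all microRNA reads in each library (y axes), with soy libraries left of regular ones. In the left panel, bars are exact binomial 95% intervals and dashed lines the group means; regular 3 stands at 392.3 and the other 5 libraries between 147.9 and 237.7. The right panel divides the same reads by stretch of the locus, with the miR-379 to miR-410 group the largest part in every library.

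The miR-379 to miR-410 group, with 31 members, gave 9988 of the 12829 cluster reads, or 77.9%. The 12 members at Rtl1 gave 2809 reads, or 21.9%, the 3 members within Rian gave 32 reads, and miR-770-3p of the Meg3 exon had none. The division between the 2 larger stretches was similar in the means of both diets. The Rtl1 stretch took 22.0% ± 6.75 of the cluster reads in soy and 22.3% ± 4.66 in regular livers (SD, n = 3 each), with a range of 15.2% to 28.7% in soy and 18.6% to 27.6% in regular libraries.

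miR-541-5p, miR-411-5p and miR-434-3p together gave 75.5% of the cluster reads. They stood at ranks 117, 132 and 161 among the 1907 microRNAs by mean level. The 14 members with a mean of at least 10 reads per library gave 95.9%. Of the others, 10 had no reads in any library: miR-770-3p, miR-665-3p, miR-341-5p, miR-323-3p, miR-494-3p, miR-487b-3p, miR-382-5p, miR-382-3p, miR-409-5p and miR-412-5p. By counting error alone, a count of 0 allows up to 3 reads, or 0.244 to 0.300 CPM in soy and 0.293 to 0.480 CPM in regular libraries. Variation between libraries beyond counting error is not covered by this bound. Here, for single members and for sums over other lists of microRNAs, CPM uses the TMM-scaled library size. The cluster share uses the library total. In all, 1191 of 1907 microRNAs were at 0 in every library.

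miR-541-5p, from a hairpin in an intron of Mirg at 109742409 to 109742498, was the most read member. It stood at 43.8, 52.1 and 81.9 CPM in soy libraries, against 53.9, 71.4 and 159.9 CPM in regular libraries. The mean was 59.3 ± 20.03 CPM with soy and 95.02 ± 56.8 CPM with regular chow (SD, n = 3 each). The groups overlapped, and the highest value was that of regular replicate 3. Its log2 fold change, soy over regular, was -0.68 ± 0.41 (SE; edgeR quasi-likelihood test, adjusted p = 0.982). It was -0.06 without regular replicate 3, and with single libraries left out it ranged from -0.98 to -0.06.

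miR-411-5p lies near the start of the same group, on the hairpin at 109710175 to 109710256. It had 615, 440 and 821 reads in soy, against 762, 578 and 481 in regular libraries, or 58.7 ± 20.6 CPM with soy against 69.7 ± 10.4 CPM with regular chow (SD, n = 3 each). The groups overlapped, with soy replicate 3 the highest. The log2 fold change was -0.25 ± 0.28 (SE; edgeR adjusted p = 0.982). It was -0.57 without soy replicate 3, -0.37 without regular replicate 2 and -0.08 without soy replicate 2, the last being the value nearest 0.

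miR-434-3p is processed from a hairpin opposite Rtl1, at 109594506 to 109594599. MicroRNAs of this stretch pair fully with the Rtl1 transcript and direct its cleavage. It stood at 33.4, 22.1 and 21.4 CPM in soy, against 36.1, 31.9 and 48.8 CPM in regular libraries, with means of 25.7 ± 6.74 CPM for soy and 38.9 ± 8.81 CPM for regular chow (SD, n = 3 each). Soy replicate 1 lay inside the regular range. The log2 fold change was -0.60 ± 0.31 (SE; edgeR adjusted p = 0.954). With single libraries left out it ranged from -0.84 without soy replicate 1 to -0.38 without regular replicate 3.

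miR-136-3p, also opposite Rtl1, was the member of smallest p. It had 39, 15 and 38 reads in soy, against 42, 87 and 95 in regular libraries, or 2.82 ± 1.20 CPM with soy against 9.33 ± 5.58 CPM with regular chow (SD, n = 3 each). Every soy library was below every regular library, although soy replicate 3, at 3.81 CPM, and regular replicate 1, at 4.11 CPM, lay close to each other. The log2 fold change was -1.72 ± 0.68 (SE) with an unadjusted p of 0.0309, and it did not pass over the 437 microRNAs tested (edgeR adjusted p = 0.728). With single libraries left out it ranged from -1.99 without regular replicate 1 to -1.14 without regular replicate 3.

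miR-409-3p, which neighbours miR-541 on the locus, stood at 1.46, 10.5 and 17.9 CPM in soy, against 18.8, 14.6 and 14.1 CPM in regular libraries. Soy replicate 1 was the low value, and the other libraries of both diets overlapped. The log2 fold change was -0.67 ± 0.70 (SE; edgeR adjusted p = 0.982). It was -1.40 without soy replicate 3, -0.15 without soy replicate 1 and -1.43 with limma-voom. Its partner arm miR-409-5p had no reads in any library.

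miR-381-3p had 92, 70 and 60 reads in soy, against 0, 147 and 107 in regular libraries. The regular values lay on both sides of the soy range: regular replicate 1 was at 0, while the other regular libraries stood above every soy library. The near-identical miR-300-3p was present in regular replicate 1, with 2, 49 and 19 reads in soy, against 8, 51 and 15 in regular libraries. The log2 fold change of miR-381-3p was -0.63 ± 1.16 (SE; edgeR adjusted p = 0.982). It was -0.04 without regular replicate 3, -0.32 without regular replicate 2 and -1.14 without regular replicate 1, and it had the opposite sign, 2.05, with limma-voom. miR-410-3p, at the end of the group, had 32, 30 and 24 reads in soy, against 15, 21 and 36 in regular libraries, with the soy values inside the regular range.

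**Figure D2:**
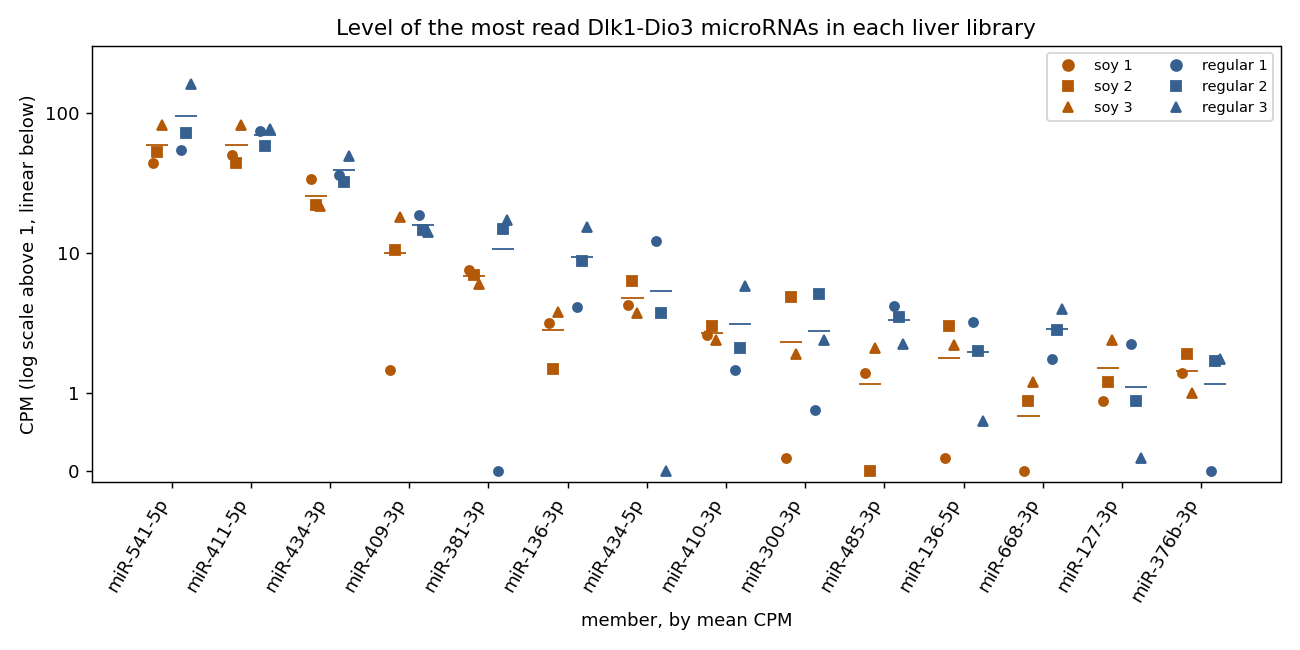
Level in CPM (y axis, logarithmic above 1 and linear below) of the 14 members with a mean of at least 10 reads, each symbol a library and each short line a group mean, soy left of regular. Soy and regular symbols overlap for all of these members except miR-136-3p, miR-485-3p and miR-668-3p; miR-381-3p, miR-434-5p and miR-376b-3p each have a regular library at 0, and miR-485-3p and miR-668-3p each a soy library at 0.

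Among members with fewer reads, miR-668-3p and miR-485-3p were the others whose soy and regular ranges did not overlap. miR-668-3p had 0, 9 and 12 reads in soy, against 18, 28 and 25 in regular libraries. Its log2 fold change was -2.01 ± 1.48 (SE; edgeR adjusted p = 0.982), from -2.65 without soy replicate 3 to -1.43 without soy replicate 1. miR-485-3p had 17, 0 and 21 reads in soy, against 43, 35 and 14 in regular libraries, and its ranges parted only in CPM, at 2.10 CPM in soy replicate 3 and 2.24 CPM in regular replicate 3. Its log2 fold change was -1.50 ± 1.37 (SE; edgeR adjusted p = 0.982). It was -0.93 without soy replicate 2, the library at 0, -2.23 without soy replicate 3 and -2.64 with limma-voom. Their hairpins are neighbours in the annotated Mirg gene, and no library held more than 43 reads of either.

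miR-127-3p, also opposite Rtl1, had 11, 12 and 24 reads in soy, against 23, 9 and 1 in regular libraries. miR-376b-3p had 17, 19 and 10 reads in soy, against 0, 17 and 11 in regular libraries. miR-431-5p, opposite Rtl1 like miR-127-3p, had 24, 0 and 3 reads in soy, against 5, 7 and 0 in regular libraries. In each case the groups overlapped. miR-134-5p, which limits dendritic spine growth through Limk1 in rat neurons, had 0, 6 and 4 reads in soy, against 4, 0 and 11 in regular libraries. The other members tested, miR-411-3p, miR-540-3p, miR-154-5p and miR-369-3p, reached no more than 14 reads per library, and all 4 overlapped between the diets.

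Of the 47 members, 20 had at least 4 reads in at least 3 libraries and were tested. None passed edgeR's quasi-likelihood test (adjusted p 0.728 to 0.982), and 0% of all 437 microRNAs tested passed. At an unadjusted p under 0.05 edgeR gave 1 member, miR-136-3p, or 5% of the members tested, against 5.03% of all microRNAs tested in either direction and 2.75% lower in soy. DESeq2 and limma-voom called none of the members, with 1 and 0 members at an unadjusted p under 0.05. Over all microRNAs tested DESeq2 called 0.458% and limma-voom 0%. Without a filter on low counts edgeR called none of the 37 members with reads and 1.12% of all microRNAs with reads. The soy range of CPM lay apart from the regular range for 3 of 20 members tested, or 15%, against 12.8% of all microRNAs tested. All 3 were lower in soy, a direction found for 5.49% of all microRNAs tested.

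Most members tested had a lower fitted level in the libraries labelled soy. Of the 20, 15 had a log2 fold change below 0 and 5 above, or 75% below, while 51.5% of all microRNAs tested were below 0. The median log2 fold change was -0.27 over the members tested and -0.02 over all microRNAs tested. These are descriptions of a list without a test. The members share a locus and come from the same libraries, so their directions are not independent. By stretch, 11 of 13 members tested in the miR-379 to miR-410 group and 4 of 7 at Rtl1 were below 0.

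The errors of the members were large. The SE of the log2 fold change ranged from 0.28 for miR-411-5p to 2.53 for miR-154-5p and was above 1 for 14 of the 20 members tested. The median biological coefficient of variation fitted by edgeR was 1.05 for the members and 0.525 for all microRNAs tested. The members were also lower in level, with a median of 2.05 CPM against 9.13 CPM. With errors of this size, differences may have gone undetected here. The parts of depth and of variation between libraries in these errors were not tested.

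**Figure D3:**
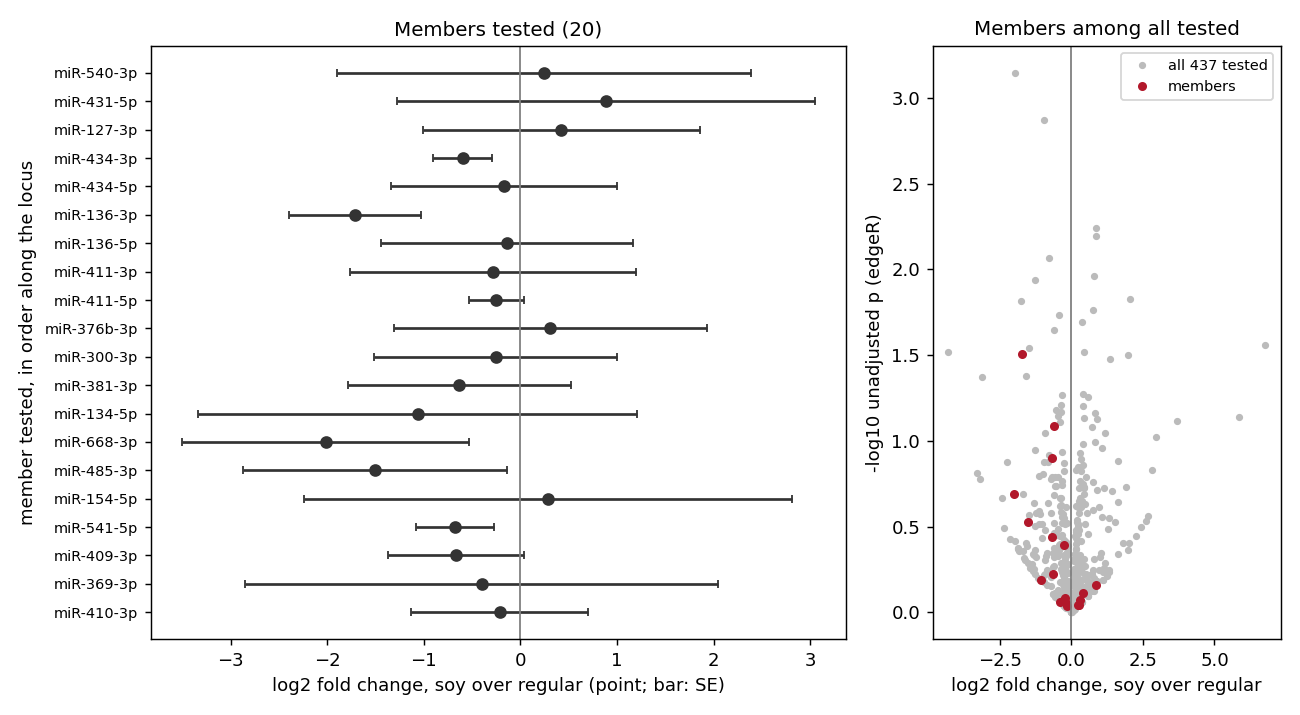
Left, log2 fold change of soy over regular for the 20 members tested, with bars of 1 SE, in order along the locus; most points lie left of 0, and the bars of 14 members extend over more than 1 log2 unit to either side. Right, log2 fold change against the -log10 of the unadjusted edgeR p for all 437 microRNAs tested (grey) and the members (red), whose smallest p is that of miR-136-3p at 0.0309.

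Whether a member was read at all varied from library to library. Each library came from a different mouse, so differences between mice and between library preparations cannot be told apart. Between 17 and 26 members had reads in each soy library, and between 19 and 28 in each regular library. The mean was 20 ± 5.20 in soy and 22.7 ± 4.73 in regular livers (SD, n = 3 each). Reads in all 6 libraries were found for 10 of the 47 members, of which 37 had any reads. Over the whole table this held for 312 of 1907 microRNAs, of which 716 had any reads. Of the 20 members tested, 9 had no read in some library and at least 10 reads in another, or 45%, against 28.4% of all microRNAs tested, which are of higher level.

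Several members appeared in a single library. Of the 37 members with reads, 11 were read in 1 library only, 6 of them in regular replicate 2. miR-299a-3p had 35 reads there and 0 in the other 5 libraries. miR-329-3p had 17, miR-337-3p 12, miR-369-5p 10, miR-485-5p 9 and miR-299a-5p 1 in that library alone. miR-543-3p had 20 reads in regular replicate 3 alone, and miR-433-3p 7 reads in regular replicate 1 alone. Soy replicate 3 was the only library with miR-495-3p (19 reads), miR-341-3p (13 reads) and miR-376a-3p (5 reads). In all 716 microRNAs with reads, 182 were read in 1 library only.

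Further members were read in few libraries and did not enter the tests. miR-377-3p had 0 reads in every soy library, against 35, 17 and 0 in regular libraries. miR-370-3p, known in human hepatoma cells to lower CPT1A, an enzyme of fatty acid oxidation, had 0 in every soy library and 0, 9 and 10 in regular libraries, and miR-376c-3p had 0 in every soy library and 8, 8 and 0 in regular libraries. miR-379-5p, the first microRNA of its group, had 0, 0 and 20 reads in soy, against 15, 0 and 0 in regular libraries. miR-337-5p had 3, 0 and 6 reads in soy, against 20, 1 and 0 in regular libraries, and miR-127-5p 0, 0 and 12 in soy and 7, 0 and 0 in regular libraries.

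In all, 3 members were read in soy libraries only, 11 in regular libraries only and 23 under both diets. Among all microRNAs with reads, 105 microRNAs were read in soy libraries only and 107 in regular libraries only. The highest CPM was found in a regular library for 28 of the 37 members with reads, or 75.7%, and for 52.0% of all 716 microRNAs with reads. By library, the highest value fell 1, 1 and 7 times in soy replicates 1, 2 and 3, against 7, 10 and 11 times in regular replicates 1, 2 and 3. Soy replicate 3 therefore differed from the other soy libraries in this count, as it did in the summed share.

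**Figure D4:**
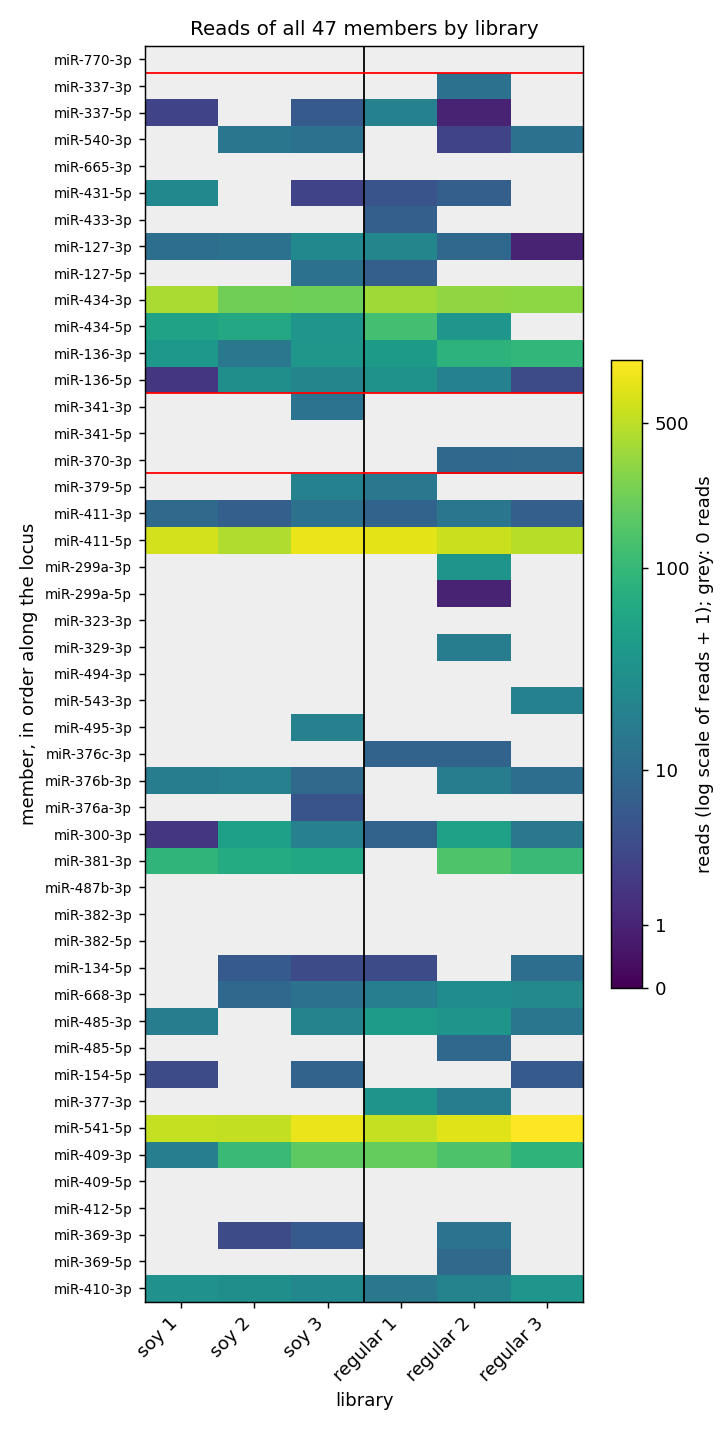
Reads of all 47 members (rows, in order along the locus; red lines part the Meg3, Rtl1, Rian and miR-379 to miR-410 stretches) in each library (columns, soy left of regular), on a colour scale of reads with 0 in grey. In this map 10 rows are filled in all 6 libraries, 10 rows are grey throughout, and 11 rows are filled in a single library.

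Both arms of a hairpin can be compared within a library, without scaling between libraries. Among hairpins with both arms in the list, 3 had at least 20 reads in every library. miR-411 was read almost wholly from its 5p arm, at 98.5% ± 0.084 in soy and 98.4% ± 0.681 in regular livers (SD, n = 3 each). miR-434 was read mainly from its 3p arm, with the 5p arm at 16.0% ± 5.55 in soy and 11.9% ± 12.7 in regular livers. miR-136 took 36.1% ± 30.9 of its reads from the 5p arm in soy and 22.2% ± 20.2 in regular livers. No difference between the diets passed the two-sided exact permutation test (p = 0.6 for miR-434, 0.6 for miR-136 and 1 for miR-411, and 0.9, 0.9 and 1 after Benjamini-Hochberg adjustment over the 3 hairpins). With 3 mice against 3, this test cannot give a p below 0.1.

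The arms of miR-434 and miR-136 parted widely between libraries of the same diet. miR-434-5p had 52, 63 and 37 reads in soy, against 125, 37 and 0 in regular libraries. In regular replicate 3 the 5p arm was thus at 0 of 305 reads, with an exact 95% interval up to 1.20%, while in regular replicate 1 it was 25.3% (21.5% to 29.4%). miR-136-5p had 2, 30 and 22 reads in soy, against 33, 20 and 4 in regular libraries. Its share was 4.88% in soy replicate 1 (0.596% to 16.5%) and 66.7% in soy replicate 2 (51.0% to 80.0%), and 44.0% in regular replicate 1 (32.5% to 55.9%) against 4.04% in regular replicate 3 (1.11% to 10.0%). The intervals of each pair do not overlap, but they cover counting error only and treat reads as independent molecules, so they do not measure how far mice differ. The fitted log2 fold changes of the less read arms were -0.17 ± 1.17 for miR-434-5p and -0.14 ± 1.30 for miR-136-5p (SE; edgeR adjusted p = 0.982 for both), and both turned positive when regular replicate 1 was left out, to 1.39 and 0.48. miR-411-3p, at 7 to 14 reads in every library, had -0.28 ± 1.48 (SE; edgeR adjusted p = 0.982), from -0.54 without soy replicate 3 to -0.07 without regular replicate 2.

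**Figure D5:**
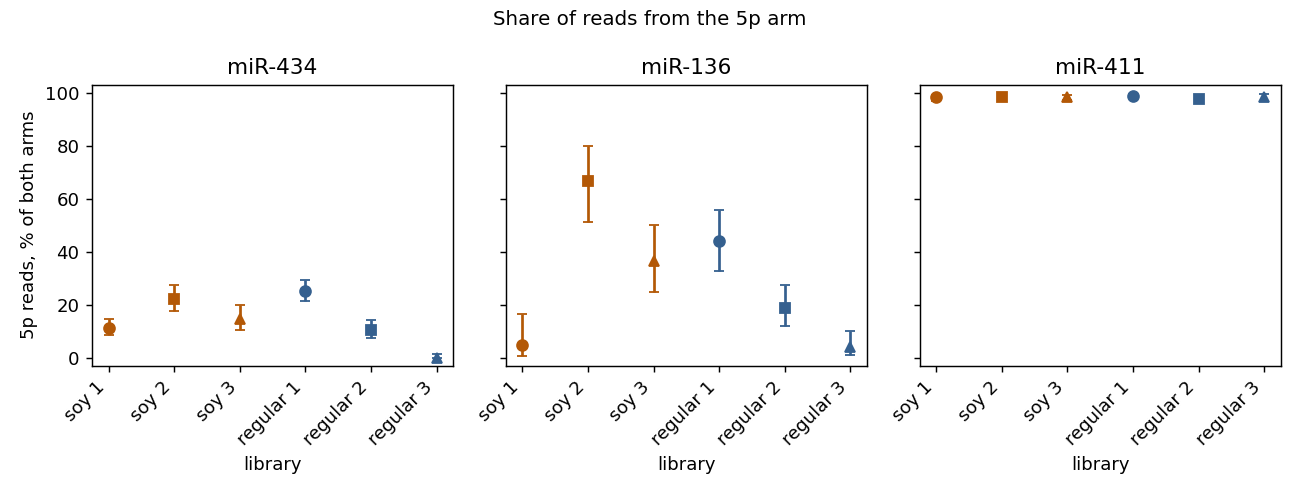
Share of reads from the 5p arm (y axis, % of the reads of both arms) for miR-434, miR-136 and miR-411 in each library, soy left of regular, with exact binomial 95% intervals. miR-411 stays between 97.6% and 98.96% in all 6 libraries, while miR-136 ranges from 4.04% to 66.7% and miR-434 from 0% to 25.3%.

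Other mature microRNAs of the same stretch of chromosome 12 were low as well. Of 67 that are not among the members, 55 had no read in any library and 2 were tested. miR-673-5p had 23, 26 and 6 reads in soy, against 37, 13 and 26 in regular libraries (log2 fold change -0.84 ± 1.06 SE). miR-379-3p, the other arm of the miR-379 hairpin, had 12, 0 and 0 reads in soy, against 0, 15 and 8 in regular libraries (-1.45 ± 2.34 SE). Neither passed edgeR's test (adjusted p = 0.982 for both).

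The libraries carried the markers of liver. The 5 hepatocyte microRNAs, miR-122 among them, summed to 286785 to 335092 CPM in soy and 267512 to 351066 CPM in regular libraries. The 6 mesenchymal and stellate microRNAs summed to 18652 to 24976 CPM in soy and 15888 to 23788 CPM in regular libraries. Regular replicate 3, with the highest cluster share, held the lowest sum on TMM-scaled sizes. On these sizes it was also the lowest for the hepatocyte, endothelial, leukocyte and neural lists, but not for the erythroid, epithelial, muscle and pancreas lists. Its TMM factor, 1.09, was the highest. On library totals, regular replicate 3 was the lowest for the endothelial and neural lists only. Of 7 neural microRNAs, miR-124-3p, miR-9-3p and miR-219a-2-3p were at 0 in every library, and the list summed to 65.6 to 96.3 CPM in soy and 58.2 to 101.8 CPM in regular libraries. Most of this was miR-128-3p, at 62.9 to 92.2 CPM in soy and 52.5 to 98.4 CPM in regular libraries, a level like that of the most read members, and miR-9-5p had 11 reads in regular replicate 3 alone. No list of embryo or placenta microRNAs was examined, and the part of other tissues in the cluster values was not tested. Of 6 muscle microRNAs, miR-206-3p, miR-133b-3p and miR-208a-3p were at 0, and the list summed to 3.42 to 12.0 CPM in soy and 4.90 to 9.29 CPM in regular libraries. The 2 endothelial microRNAs summed to 20115 to 21088 CPM in soy and 14482 to 17936 CPM in regular libraries, and the 5 leukocyte microRNAs to 1397 to 2004 CPM in soy and 756.1 to 1371 CPM in regular libraries. The ranges of these sums did not overlap, with soy the higher, and their part in the cluster values was not tested. The 4 erythroid microRNAs summed to 1399 to 1426 CPM in soy and 784.3 to 1885 CPM in regular libraries. The 5 epithelial and bile duct microRNAs summed to 253.6 to 296.8 CPM in soy and 207.98 to 239.9 CPM in regular libraries. These ranges lay apart on TMM-scaled sizes but overlapped on library totals. The endothelial and leukocyte ranges lay apart on both. The 4 pancreas microRNAs summed to 13.8 to 163.3 CPM in soy and 9.77 to 66.1 CPM in regular libraries. No microRNA of these lists passed edgeR's test as run on the 437. Without a filter on low counts edgeR called the leukocyte microRNAs miR-142a-5p (log2 fold change 0.83, adjusted p = 0.0076) and miR-150-5p (0.94, adjusted p = 0.0373) and the pancreas microRNA miR-375-3p (1.22, adjusted p = 0.0076), all higher in soy. With the replicate number as a block it called miR-142a-5p (0.80, adjusted p = 0.031), miR-375-3p (0.99, adjusted p = 0.0432) and, lower in soy, the mesenchymal miR-145a-5p (-0.96, adjusted p = 0.0432), which DESeq2 also called (-0.96, adjusted p = 0.00952). In the edgeR test of the 437, 3 of the 5 mesenchymal and stellate microRNAs tested were higher in soy and 2 lower. Of the leukocyte microRNAs 4 were higher and 1 lower, and of the pancreas microRNAs tested 1 was higher and 1 lower. In whole liver, fewer cells of a type and less RNA per cell cannot be told apart.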

How the data were processed

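Liver RNA was made into TruSeq small RNA libraries and sequenced as single-end reads. The deposited count table holds whole reads per mature microRNA, assigned by the authors; no source used here names the aligner or build. The deposited log2 table holds the same reads scaled and log2-transformed by the authors, with no value below 4 reads (0 mismatches when checked), and served as an alternative.

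The 437 microRNAs that reached 4 reads in 3 or more libraries were tested by edgeR (version 4.0.16 under R 4.3.3; quasi-likelihood test, no covariate, TMM scaling, Benjamini-Hochberg adjustment over all 437, threshold 0.05). The SE is the log2 fold change divided by the root of the F statistic. DESeq2 1.42.0, limma 3.58.1 (voom, and on the log2 values), other scalings and filters, a replicate block and leaving out each library were alternatives. Diets follow the sample titles and the column headers that repeat them. The assignment was not checked by another measure, so every direction rests on it. If the labels were exchanged, each statement of higher or lower in soy given here would turn round. Arm shares were compared by exact permutation over 20 assignments. Steps were also run on simulated data. The outcome is not given here, and how often changes in the members would be found was not measured. Within a group, counts of any pair of mice differed by far more than sampling noise. The chi-square was 229.3 or more for each degree of freedom, so none looked like a repeated deposit. The p-values set the difference between diets against the spread between libraries, in which mouse and library preparation cannot be told apart.

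The members and lists were chosen with earlier results of these data known. By rule, members with a mean of at least 10 reads are given in every library, as reads or, for miR-541-5p, miR-434-3p and miR-409-3p, as CPM, and fold changes are given for the 5 of smallest p, the 5 most abundant and their partner arms. Reads of members of lower mean were added after their values were seen. miR-673-5p and miR-379-3p were added because they were the other arms tested. Positions come from RefSeq and GENCODE M21 (GRCm38).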

Additional observations from a re-analysis of the deposited data

How the results depend on the processing

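No member of the cluster was called under any of the 14 alternatives. Over all microRNAs, edgeR called 0, edgeR without a filter on low counts 8, DESeq2 2 and edgeR with the replicate block 5. The DESeq2 calls, miR-145a-5p (-0.96) and miR-455-3p (-1.97), were lower in the libraries labelled soy. The replicate numbers gave no sign of pairing. Deviations of same-numbered mice from their group means correlated at 0.03, -0.10 and 0.004, and those of differently numbered mice at -0.11 to 0.14. With so few mice this check could miss a shared block. With the block 9 members had a positive and 11 a negative log2 fold change, with miR-434-5p at 1.02 and miR-381-3p at 0.20. The median log2 fold change of the members (-0.27) was -0.53 over the 37 members fitted without a filter and -0.62 over the 7 with log2 values in all libraries, where fewer or more members entered. Leaving out single libraries moved it between -0.54 and -0.17. Members higher in soy numbered 10 without a filter, 3 with at least 10 reads in 3 libraries, 8 with limma-voom, 0 on the log2 values and 2 to 7 with a library left out, against 5; members lower numbered 27 without a filter and 7 on the log2 values, against 15. limma-voom turned miR-434-5p to 1.07 and miR-381-3p to 2.05; the cause was not tested. With single libraries left out, miR-434-5p ranged from -0.75 to 1.39 and miR-136-5p from -0.73 to 0.48 (0.40 without soy replicate 1; -0.89 with limma-voom). Differences of the 5p share, soy minus regular in percentage points, ranged from -1.82 to 10.8 for miR-434, -1.47 to 29.4 for miR-136 and -0.30 to 0.36 for miR-411, lowest without regular replicate 3, soy replicate 2 and regular replicate 2 in that order. The log2 ratio of the summed share ranged from -0.86 to -0.31. The other members given with fold changes kept a negative sign under all alternatives that gave a value. The part of depth in the values of members of few reads was not tested.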

Other observations

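MicroRNAs of other imprinted loci, chosen for comparison after the data were seen, were read at unlike levels in the same livers. miR-335-5p and miR-335-3p lie in an intron of Mest. miR-335-5p stood at 96.6, 61.6 and 71.9 CPM in soy, against 83.1, 83.8 and 31.4 CPM in regular libraries (log2 fold change 0.21 ± 0.36 SE, edgeR adjusted p = 0.982). miR-335-3p stood at 52.7, 42.9 and 40.6 CPM in soy, against 37.4, 26.4 and 25.9 CPM in regular libraries (0.60 ± 0.28 SE, edgeR adjusted p = 0.941). miR-298-5p of the Gnas locus had 45, 48 and 27 reads in soy and 22, 53 and 0 in regular libraries, and its neighbour miR-296-5p 0, 7 and 11 in soy and 0, 5 and 10 in regular libraries. miR-296-3p had 13 reads in soy replicate 3 and 4 in regular replicate 3. miR-675-5p and miR-675-3p of H19 had no reads, and of the miR-483 arms of Igf2 there were 6 reads of miR-483-3p in regular replicate 1. These loci summed to 109.9 to 153.0 CPM in soy libraries, against 116.0 to 123.3 CPM in regular replicates 1 and 2 and 59.5 CPM in regular replicate 3. That library had the highest Dlk1-Dio3 share and also, on TMM-scaled sizes, the lowest sums of several cell type lists.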
